A study of Homo sapiens with 6 samples.

Results

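The genes described here make, store, take back and break down catecholamines. They are TH, DDC, DBH, SLC18A1, SLC18A2, SLC6A2, MAOA, CHGA and CHGB, chosen by symbol, and all 9 are listed among the 61860 genes of the deposited table. RNA was sequenced from SH-SY5Y, a human neuroblastoma cell line of sympathetic origin that was differentiated towards a neuron-like state with all-trans retinoic acid. The IR+Oligonol group (3 libraries) received Oligonol, a lychee-derived polyphenol preparation, at 500 ng/mL for 24 h, and the IR control group (3 libraries) did not. Cells of both groups had been made insulin resistant (IR) by 24 h in 30 mM D-glucose and 100 nM insulin, so neither group is an untreated baseline. The labels do not say whether Oligonol was present during that induction, nor whether the 3 libraries of a group are 3 cultures.

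In sympathetic neurons, tyrosine hydroxylase turns tyrosine into L-DOPA, aromatic L-amino acid decarboxylase turns L-DOPA into dopamine, and dopamine beta-hydroxylase turns dopamine into noradrenaline inside dense-core vesicles. Vesicular monoamine transporters load the vesicles, chromogranins help to condense their contents, the noradrenaline transporter recovers released transmitter, and monoamine oxidase A degrades it on the outer mitochondrial membrane. SH-SY5Y cells are widely used as a model of noradrenergic and dopaminergic neurons.

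Levels are in CPM, the estimated counts scaled to a common library total with TMM factors. These estimated counts behaved as per-length abundances, so levels of different genes can be set side by side on this scale. Of the 9 genes, 7 passed the expression filter and were tested, and TH and SLC18A2 were too low to be tested. CHGA was lower and MAOA higher in IR+Oligonol cells at an adjusted p under 0.05 (edgeR), and the other 5 tested genes were not called. MAOA passed the filter only through the IR+Oligonol libraries, the group where it was higher. The calls are read beside a comparison in which 48.9% of all tested genes were called (26.0% higher and 23.0% lower), and in which the fold change of protein-coding genes followed transcript GC content. After that GC trend was removed, none of the 7 genes was called, against 5.45% of all tested genes (2.89% higher and 2.56% lower). In this fit DDC and CHGB of the 7 had an unadjusted p under 0.05.

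Promoter bases of 4 of the genes are printed as context for the calls. CHGA is the member called lower and MAOA the member called higher. SLC18A2 carries the same cAMP response element as CHGA, and DBH a shorter form. The gene for CREB1, the factor that binds this element, was called higher under TMM scaling. It was not called with the GC trend removed (adjusted p 0.0724 in edgeR), and a link between CREB1 and any member was not tested. Each sequence is the 250 bases upstream of a RefSeq start on GRCh38.p14, read 5′ to 3′ on the gene's strand, which is the plus strand for all 4 genes. For MAOA and SLC18A2 that start differs from the gene start of the deposited table. The MAOA window lies inside the deposited gene span, which begins at 43654907, and the SLC18A2 window runs past the deposited start of 117241093. In the first 3, capitals mark TGACG on either strand and the longer palindrome TGACGTCA. In MAOA, capitals mark the GC box GGGCGG on either strand.
CHGA, chr14:92922900-92923149: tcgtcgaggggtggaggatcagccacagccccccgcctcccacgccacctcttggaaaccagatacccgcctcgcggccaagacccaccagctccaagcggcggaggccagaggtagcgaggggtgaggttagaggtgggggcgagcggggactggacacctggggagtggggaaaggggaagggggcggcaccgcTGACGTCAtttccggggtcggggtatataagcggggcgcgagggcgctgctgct
SLC18A2, chr10:117240864-117241113: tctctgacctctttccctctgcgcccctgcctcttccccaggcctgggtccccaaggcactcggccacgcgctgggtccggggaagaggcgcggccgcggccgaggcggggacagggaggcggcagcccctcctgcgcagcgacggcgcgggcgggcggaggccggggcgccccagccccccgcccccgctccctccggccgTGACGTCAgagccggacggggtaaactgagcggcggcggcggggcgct
DBH, chr9:133636113-133636362: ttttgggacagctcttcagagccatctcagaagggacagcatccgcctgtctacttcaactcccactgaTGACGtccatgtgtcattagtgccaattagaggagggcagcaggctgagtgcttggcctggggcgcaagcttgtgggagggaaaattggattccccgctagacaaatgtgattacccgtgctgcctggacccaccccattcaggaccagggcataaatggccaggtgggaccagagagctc
MAOA, chrX:43656049-43656298: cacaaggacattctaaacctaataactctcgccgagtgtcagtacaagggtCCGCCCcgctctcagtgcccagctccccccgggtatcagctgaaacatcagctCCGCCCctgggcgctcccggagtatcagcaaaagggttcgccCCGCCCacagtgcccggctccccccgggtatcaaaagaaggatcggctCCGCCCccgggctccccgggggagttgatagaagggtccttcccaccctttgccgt
The palindrome began 54 bases before the start of CHGA and 48 bases before that of SLC18A2. It occurred in 1.65% of 35116 RefSeq promoter windows of the same length. The DBH window held TGACG alone, 181 bases before the start, a motif found in 21.2% of windows. The MAOA window held 4 copies of the GC box, a motif found in 42.6% of windows, and no TGACG. The GC box also occurred in the windows of CHGA (1 copy) and SLC18A2 (3 copies), where it is not capitalised, and not in that of DBH. Windows of TH, SLC18A1, SLC6A2 and CHGB were not examined. DDC had 2 RefSeq starts, and neither window held TGACG. A motif match describes the letters of the window and was not linked to binding in these cells.

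By mean level, IR+Oligonol cells had the order CHGA, DBH, CHGB, SLC6A2, DDC, MAOA, SLC18A1, SLC18A2 and TH, in which the libraries of MAOA and SLC18A1, and of SLC18A2 and TH, overlapped. IR control cells had the order CHGA, DBH, SLC6A2, CHGB, DDC, SLC18A1, MAOA, TH and SLC18A2, in which the libraries of SLC6A2 and CHGB overlapped. The other neighbours did not overlap. CHGA had a mean level above 96.9% of all tested genes and DBH above 93.1%, whereas SLC18A1 lay above 36.7% and MAOA above 24.8%.

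**Figure D1:**
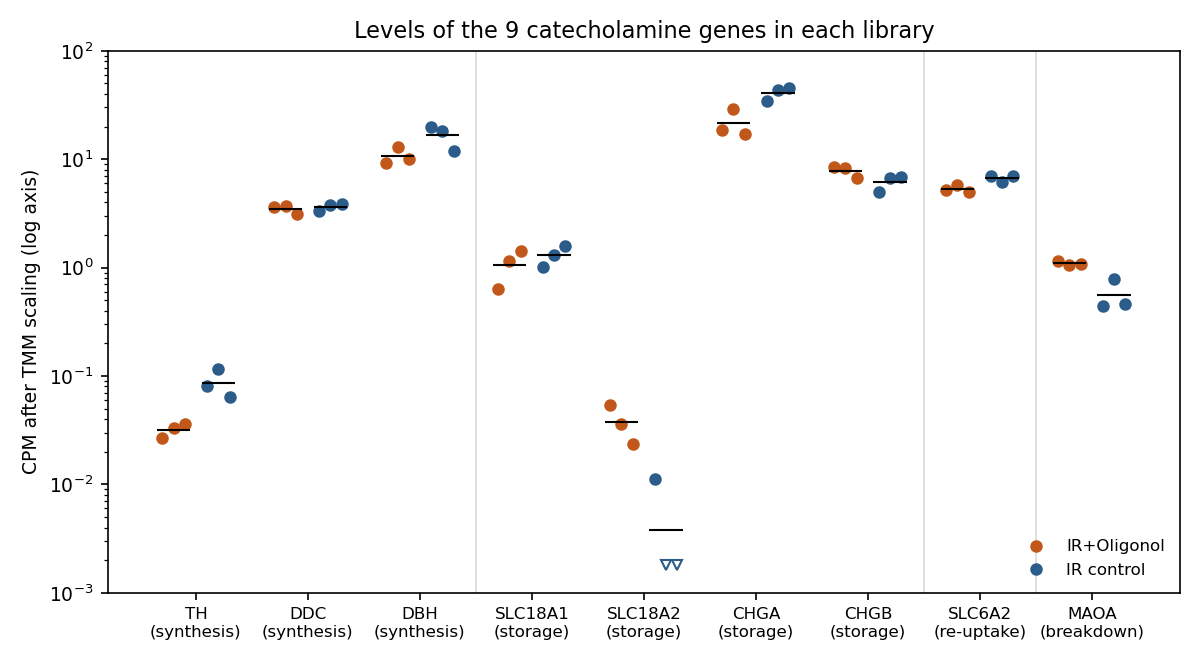
CPM after TMM scaling on a log axis for each of the 9 genes, with 1 point per library, IR+Oligonol left of IR control, and a bar at each group mean. Open triangles at the bottom mark the 2 IR control libraries in which SLC18A2 was listed at 0. CHGA stands highest, and TH and SLC18A2 are the 2 lowest genes in all 6 libraries.

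Among the synthesis enzymes, the rate-limiting one was the least abundant. TH (chromosome 11, 2163929 to 2171815, minus strand, GRCh38.p13) had 0.0267, 0.0330 and 0.0360 CPM in the 3 IR+Oligonol libraries, against 0.0805, 0.116 and 0.0643 CPM in the 3 IR control libraries. The lowest IR control library was above the highest IR+Oligonol library. Those levels rest on very few reads. The estimated counts were 1, 0.85 and 1.25 in IR+Oligonol libraries and 1.35, 1.79 and 1.1 in IR control libraries. With the longest annotated transcript they correspond to 3.82, 4.22 and 5.09 read equivalents in IR+Oligonol libraries and 8.84, 12.0 and 7.37 in IR control libraries. The difference gave p = 0.1 in an exact 2-sided permutation test, the smallest p that 3 against 3 allows. With no expression filter, edgeR gave an adjusted p of 0.394, so a difference was not detectable at this depth. In bulk RNA, fewer cells that express a gene and less of its RNA per cell cannot be told apart, and this holds for each difference given here.

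DDC, the decarboxylase that follows TH (chromosome 7, 50458436 to 50565405, minus strand), was close in level in the groups. It had 3.58, 3.67 and 3.10 CPM in IR+Oligonol libraries, against 3.31, 3.80 and 3.84 CPM in IR control libraries. The groups overlapped, with means of 3.45 ± 0.304 CPM in IR+Oligonol cells and 3.65 ± 0.296 CPM in IR control cells (SD, n = 3 each). The log2 fold change was -0.09 (SE 0.17), with an adjusted p of 0.671 in edgeR. DDC shares 84100 nt of its locus with FIGNL1 on the same strand. FIGNL1 had 81.0, 45.0 and 68.4 estimated counts in IR+Oligonol libraries and 9.04, 19.1 and 7.88 in IR control libraries, and how far such neighbours exchange reads was not tested.

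DBH, which makes noradrenaline and is the defining enzyme of noradrenergic cells (chromosome 9, 133636363 to 133659329, plus strand), was the most abundant of the 3 synthesis enzymes. It had 9.15, 13.02 and 10.1 CPM in IR+Oligonol libraries, against 19.9, 18.1 and 11.9 CPM in IR control libraries. The third IR control library lay below the second IR+Oligonol library, so the groups overlapped. Means were 10.8 ± 2.01 CPM in IR+Oligonol cells and 16.6 ± 4.20 CPM in IR control cells (SD, n = 3 each), a log2 fold change of -0.63 (SE 0.26) with an adjusted p of 0.0724 in edgeR. Without IR+Oligonol library 2 the log2 fold change was -0.80 (adjusted p 0.0339), and without IR control library 3 it was -0.82 (adjusted p 0.0443). DESeq2 called DBH lower with all 6 libraries (-0.70, adjusted p 0.0176). Removal of the GC trend gave a log2 fold change of 0.29 with an adjusted p of 0.402, so the direction depended on that step. An antisense gene in the locus, DBH-AS1, had 15.99, 11.5 and 12.8 estimated counts in IR+Oligonol libraries and 12.1, 11.2 and 6.47 in IR control libraries.

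Of the vesicular transporters, SLC18A1 and not SLC18A2 was the one measured above the filter. SLC18A1 encodes VMAT1, the form typical of endocrine cells (chromosome 8, 20144855 to 20183206, minus strand). It had 0.633, 1.15 and 1.41 CPM in IR+Oligonol libraries, against 1.01, 1.31 and 1.58 CPM in IR control libraries. The groups overlapped over most of their range, and the log2 fold change of -0.29 (SE 0.34) had an adjusted p of 0.495 in edgeR. It was -0.023 without IR+Oligonol library 1 and -0.56 without IR+Oligonol library 3, and was called in neither case.

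SLC18A2, which encodes VMAT2, the form typical of monoamine neurons (chromosome 10, 117241093 to 117279430, plus strand), was present in traces. It had 0.0534, 0.0362 and 0.0236 CPM in IR+Oligonol libraries, against 0.0113, 0 and 0 CPM in IR control libraries. All 3 IR+Oligonol libraries were above the IR control libraries, 2 of which listed the gene at 0. These levels come from estimated counts of 2, 0.93 and 0.82 in IR+Oligonol libraries and 0.19, 0 and 0 in IR control libraries. With the longest transcript they correspond to 17.3, 10.5 and 7.56 read equivalents in IR+Oligonol libraries and 2.82, 0 and 0 in IR control libraries. The exact 2-sided permutation test gave p = 0.1, the smallest possible, and edgeR with no filter gave an adjusted p of 0.248. The gene shares 2157 nt with PDZD8 on the opposite strand, which had 79.7, 29.1 and 68.6 estimated counts in IR+Oligonol libraries and 22.2, 18.9 and 7.78 in IR control libraries. No source used here says whether quantification used strand, so how far reads of such a pair, or of DBH and DBH-AS1, were kept apart is not known.

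CHGA, the most abundant member, encodes chromogranin A, a core protein of dense-core granules (chromosome 14, 92923150 to 92935285, plus strand). It had 18.6, 28.95 and 17.2 CPM in IR+Oligonol libraries, against 34.2, 43.8 and 45.2 CPM in IR control libraries. All IR+Oligonol libraries were below all IR control libraries, with IR+Oligonol library 2 nearest to them. CHGA fell to a mean of 21.6 ± 6.42 CPM in IR+Oligonol cells, against 41.1 ± 5.97 CPM in IR control cells (SD, n = 3 each). The log2 fold change was -0.93 (SE 0.28), with an adjusted p of 0.0257 in edgeR. The call was lost without IR+Oligonol library 1 (adjusted p 0.0962), IR+Oligonol library 3 (0.107), IR control library 2 (0.0773) or IR control library 3 (0.0726), and with no expression filter (0.0952). Removing the GC trend gave CHGA a log2 fold change of 0.0033 (SE 0.15, adjusted p 0.996).

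CHGB encodes chromogranin B, the other major granin of these granules (chromosome 20, 5911510 to 5925353, plus strand), and was not called. It had 8.39, 8.36 and 6.75 CPM in IR+Oligonol libraries, against 4.96, 6.71 and 6.90 CPM in IR control libraries. The groups overlapped because the third library of IR+Oligonol lay inside the IR control range. Means were 7.83 ± 0.939 CPM in IR+Oligonol cells and 6.19 ± 1.07 CPM in IR control cells (SD, n = 3 each), a log2 fold change of 0.34 (SE 0.20) with an adjusted p of 0.188 in edgeR. It was 0.49 (SE 0.16) once the GC trend was removed, with an adjusted p of 0.112. CHGB was called higher when only genes with at least 10 estimated counts in all libraries were tested (log2 fold change 0.59, adjusted p 0.0201).

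SLC6A2 encodes the noradrenaline transporter NET, which returns released noradrenaline to the cell (chromosome 16, 55655988 to 55707645, plus strand). It had 5.15, 5.72 and 4.98 CPM in IR+Oligonol libraries, against 6.96, 6.16 and 7.05 CPM in IR control libraries. Every IR+Oligonol library was below every IR control library, by a small margin. Means were 5.28 ± 0.384 CPM in IR+Oligonol cells and 6.72 ± 0.491 CPM in IR control cells (SD, n = 3 each), a log2 fold change of -0.35 (SE 0.16) with an adjusted p of 0.104 in edgeR. DESeq2 gave -0.42 with an adjusted p of 0.0489, and edgeR without IR+Oligonol library 2 an adjusted p of 0.0493. The log2 fold change was -0.0024 with the GC trend removed (adjusted p 0.996).

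MAOA, the oxidase that prefers noradrenaline and serotonin (chromosome X, 43654907 to 43746817, plus strand), was the member that rose. It had 1.16, 1.06 and 1.07 CPM in IR+Oligonol libraries, against 0.444, 0.777 and 0.464 CPM in IR control libraries. The IR+Oligonol libraries lay close together and above all IR control libraries. Estimated counts of MAOA were 43.5, 27.2 and 37.3 in IR+Oligonol libraries and 7.45, 12.0 and 7.94 in IR control libraries. The gene thus entered the test through the group where it is high, and its call is read with that limit. MAOA rose to a mean of 1.10 ± 0.0564 CPM in IR+Oligonol cells, against 0.562 ± 0.187 CPM in IR control cells (SD, n = 3 each). The log2 fold change was 0.98 (SE 0.30), with an adjusted p of 0.0301 in edgeR. The call was lost without IR+Oligonol library 1 (adjusted p 0.0836), IR+Oligonol library 3 (0.0829), IR control library 1 (0.0814) or IR control library 3 (0.0824), with no expression filter (0.0874) and in DESeq2 (0.127). Its log2 fold change with the GC trend removed was 0.58 (SE 0.28) with an adjusted p of 0.229.

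**Figure D2:**
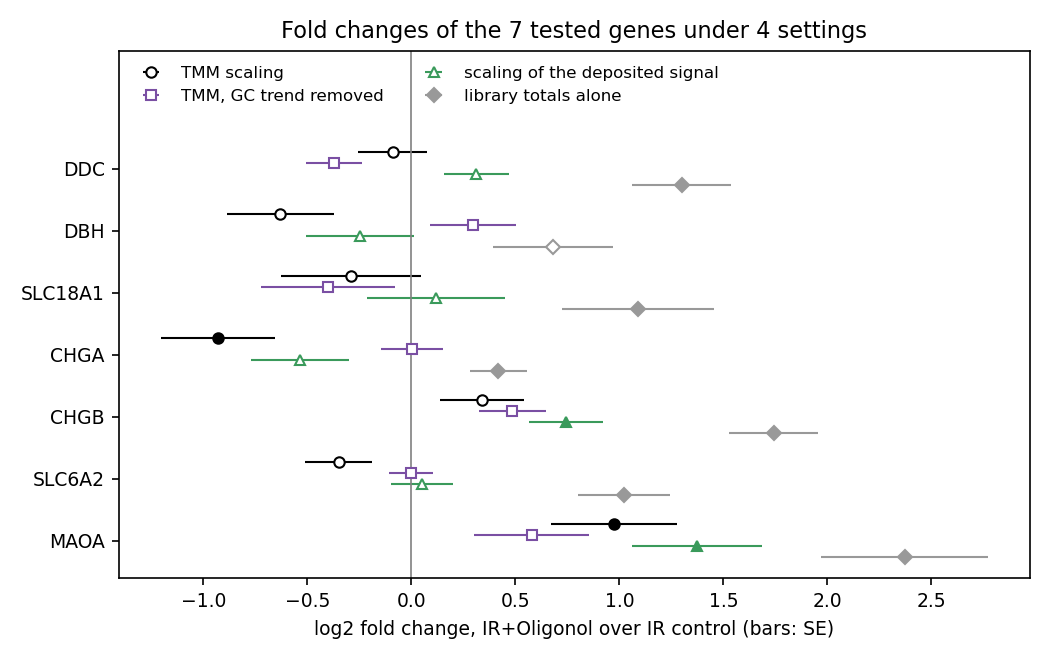
Log2 fold changes, IR+Oligonol over IR control, of the 7 tested genes under 4 settings, with bars of 1 SE and filled symbols where the adjusted p was under 0.05. Only CHGA and MAOA are filled under TMM scaling and no gene is filled with the GC trend removed, while scaling to library totals alone moves all 7 genes to positive values.

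The fold changes depended on how libraries were scaled. With library totals alone, the median log2 fold change over all tested genes was 1.53, and 68.1% of genes were called higher and 0.223% lower. Against that median, the log2 fold change of CHGA was 0.42 and that of DBH 0.68, the lowest among the members, and MAOA at 2.37 and CHGB at 1.74 were the highest. Under TMM scaling the corresponding median over all tested genes was 0.15, and that over the 7 members was -0.29. With the scaling implied by the deposited signal, the median over all tested genes was 0.55. MAOA (1.37, adjusted p 0.0110) and CHGB (0.74, adjusted p 0.0128) were then called higher by edgeR, and CHGA (-0.53, adjusted p 0.0929) was not called.

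Transcript GC content moved with the fold changes of these genes. Across 11719 protein-coding genes tested, Spearman's correlation between log2 fold change and median transcript GC was -0.85, as a description across genes, which are not independent replicates. The tested members span this range, with 62.5% GC in CHGA, 61.9% in DBH, 54.1% in SLC6A2, 52.3% in CHGB, 50.2% in SLC18A1, 48.7% in DDC and 47.7% in MAOA. The untested TH (65.8%) and SLC18A2 (42.3%) lie beyond them on either side. For CHGA, the 1290 protein-coding genes within 2 percentage points of its GC had a median log2 fold change of -1.002, beside -0.93 for CHGA itself. Of the genes in that window, 81.0% were called lower. The same window around DBH gave -0.97, beside -0.63 for DBH. The window around MAOA gave 0.44, with 31.0% of its genes called higher, beside 0.98 for MAOA. For CHGB the window gave -0.14 beside its own 0.34, and for DDC 0.32 beside its own -0.09. Around TH the window gave -1.07, with 84.7% of its genes called lower, beside -1.27 for TH with no expression filter. Around SLC18A2 it gave 0.93, with 62.9% called higher, beside 3.17 for SLC18A2 with no filter. TH and SLC18A2 thus differed between the groups in the direction of most genes of like GC. Whether the GC trend is technical or part of the response was not tested.

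**Figure D3:**
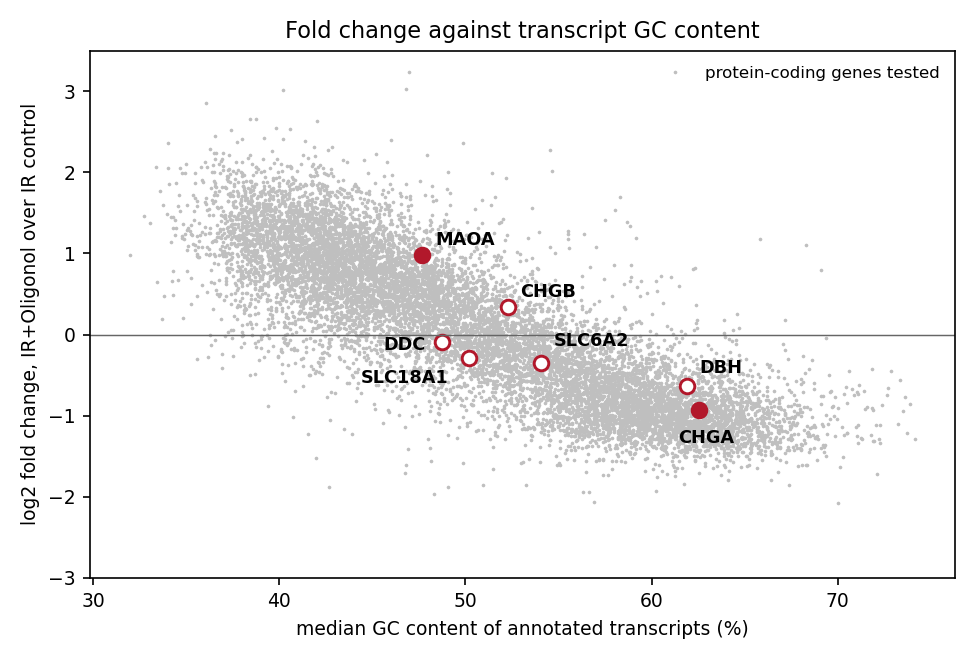
Log2 fold change, IR+Oligonol over IR control, against the median GC content of annotated transcripts for protein-coding genes tested (grey) and the 7 tested catecholamine genes (red, filled where the adjusted p was under 0.05). CHGA lies inside the band of genes of like GC, and MAOA and CHGB lie in its upper part.

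Ratios of members within a library do not depend on how libraries are scaled. The 11 ratios computed were chosen after levels had been seen, and each was compared by an exact 2-sided permutation test that cannot go below p = 0.1. Of the 11 ratios, 7 reached that p, which gave them 0.157 after Benjamini-Hochberg adjustment over the 11. That p means only that the groups did not overlap. The share of other gene pairs that separate in this way was not computed, so the count is not a result about the members. CHGA per CHGB was 2.21, 3.46 and 2.55 in IR+Oligonol libraries, against 6.90, 6.53 and 6.55 in IR control libraries (exact p = 0.1). MAOA per DBH, the oxidase relative to the noradrenaline-forming enzyme, was 0.127, 0.0811 and 0.106 in IR+Oligonol libraries, against 0.0223, 0.0429 and 0.0389 in IR control libraries (exact p = 0.1). MAOA per SLC6A2 was 0.225, 0.185 and 0.216 in IR+Oligonol libraries, against 0.0638, 0.126 and 0.0658 in IR control libraries (exact p = 0.1). In these 3 ratios the groups did not overlap.

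CHGB per DDC was 2.34, 2.28 and 2.17 in IR+Oligonol libraries, against 1.498, 1.76 and 1.80 in IR control libraries (exact p = 0.1). MAOA per DDC was 0.324, 0.288 and 0.346 in IR+Oligonol libraries, against 0.134, 0.204 and 0.121 in IR control libraries (exact p = 0.1). DBH per DDC overlapped between the groups, at 2.56, 3.55 and 3.27 in IR+Oligonol libraries and 6.02, 4.76 and 3.10 in IR control libraries (exact p = 0.3). SLC6A2 per DBH and SLC18A1 per DBH each gave an exact p of 0.6 and CHGA per DBH one of 0.4. SLC6A2 per DDC averaged 1.53 ± 0.0861 in IR+Oligonol cells and 1.85 ± 0.242 in IR control cells (SD, n = 3 each, exact p = 0.1), and DBH per TH, which rests on the few reads of TH, also gave an exact p of 0.1. The 2 genes of each ratio differ in transcript GC, by little in MAOA per DDC and CHGA per DBH. The part of GC in these ratios was not tested.

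**Figure D4:**
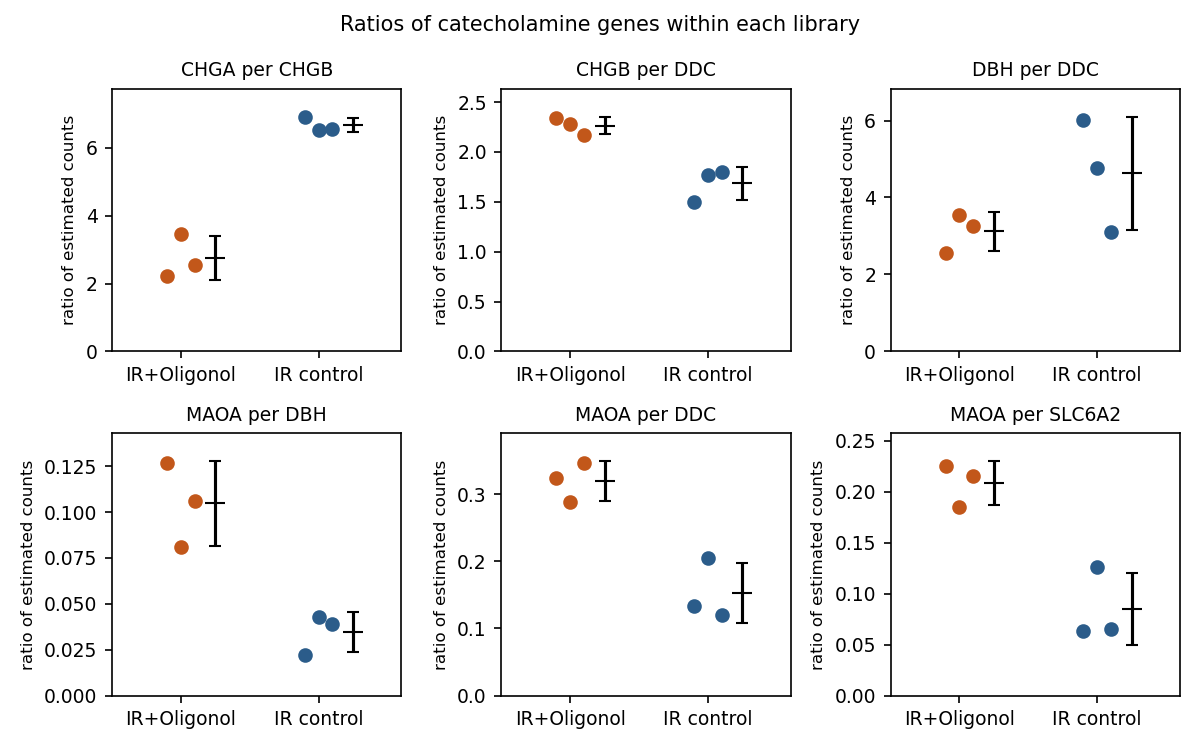
Ratio of estimated counts of 2 genes within each library, IR+Oligonol left of IR control, for 6 of the 11 ratios, with points for libraries and a bar at the mean ± SD beside them. The groups are apart in CHGA per CHGB, CHGB per DDC and the 3 MAOA ratios, and overlap in DBH per DDC.

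Summed over the 9 genes under TMM scaling, the level was 44.7 to 62.0 CPM in IR+Oligonol libraries and 71.0 to 80.8 CPM in IR control libraries. With library totals alone every tested member was higher in IR+Oligonol cells, so the direction of this sum depends on the scaling. CHGA and DBH, the largest parts of the sum, are the tested members with the highest transcript GC. No sum was computed with the GC trend removed. CHGA took 41.7 ± 4.42% of that sum in IR+Oligonol cells and 53.7 ± 5.24% in IR control cells. CHGB took 15.5 ± 2.26% in IR+Oligonol cells and 8.09 ± 1.00% in IR control cells, while DBH took 21.1 ± 1.53% in IR+Oligonol cells and 22.0 ± 6.32% in IR control cells (SD, n = 3 each). MAOA took 2.20 ± 0.429% in IR+Oligonol cells and 0.730 ± 0.201% in IR control cells.

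Other genes of catecholamine handling were described by lists, with counts read against the same 26.0% higher and 23.0% lower of all tested genes. The cofactor of TH, tetrahydrobiopterin, is made and recycled by 8 listed genes, all of them expressed, with 1 called higher and 3 lower. SPR, sepiapterin reductase, fell (-1.12, adjusted p 0.0172 in edgeR), as did the GCH1 regulator GCHFR (-1.19, adjusted p 0.0118) and PCBD1 (-0.96, adjusted p 0.0334). GCH1, the entry enzyme, had a log2 fold change of 0.25 (adjusted p 0.347 in edgeR). PTS, QDPR and PCBD2 had 0.53, 0.48 and 0.53 and were not called. None of the 8 was called with the GC trend removed.

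Among 15 other catecholamine enzymes, 10 were tested, 2 were called higher and 6 lower. MAOB, the paralogue of MAOA, had 1.02, 1.04 and 0.866 CPM in IR+Oligonol libraries, against 0.504, 0.657 and 0.357 CPM in IR control libraries. Like MAOA it rose, with a log2 fold change of 0.99 and an adjusted p of 0.0290 in edgeR. Estimated counts of MAOB were 38.2, 26.8 and 30.0 in IR+Oligonol libraries and 8.46, 10.15 and 6.11 in IR control libraries. Like MAOA, MAOB passed the filter only through the group where it is high, so the likeness of the 2 genes carries that selection. Its transcripts hold 52.9% GC, and with the trend removed its log2 fold change was 1.20 with an adjusted p of 0.0601. PNMT, which makes adrenaline and marks adrenaline chromaffin cells, fell to 0.449 ± 0.220 CPM in IR+Oligonol cells, against 1.29 ± 0.445 CPM in IR control cells (SD, n = 3 each; -1.54, adjusted p 0.0193 in edgeR).

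CYB561, the cytochrome that supplies reducing power to DBH in vesicles, fell with a log2 fold change of -1.06 (adjusted p 0.0119 in edgeR). ALDH2 (-0.68) and AKR1A1 (-1.11), which act on the aldehydes that monoamine oxidase forms, also fell, and so did the sulfotransferase gene SULT1A3 (-0.92), which has a near-identical copy and is uncertain. ADH5 rose by 0.78 on the log2 scale. ALDH9A1 (0.03) and AKR1B1 (-0.51) were not called. SULT1A1, SULT1A2 and LRTOMT were low, and ALDH1A1 and RNLS were silent, meaning under 1 estimated count in every library. None of the 10 tested enzymes was called with the GC trend removed.

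Another list held 8 other transporters, not all of them for monoamines. Of these, SLC29A4, the plasma membrane monoamine transporter, fell to 6.56 ± 1.65 CPM in IR+Oligonol cells, against 12.6 ± 0.781 CPM in IR control cells (SD, n = 3 each; -0.94, adjusted p 0.0126 in edgeR). SLC18A3, the vesicular acetylcholine transporter, fell with a log2 fold change of -0.99 (adjusted p 0.0129 in edgeR). Its mean was 4.08 ± 1.23 CPM in IR+Oligonol cells and 8.06 ± 0.489 CPM in IR control cells (SD, n = 3 each). Both were near 0 with the GC trend removed, at 0.06 and 0.01. The dopamine transporter gene SLC6A3 and SLC22A3 were listed at 0 in all 6 libraries. SLC18B1 was silent, and SLC6A4 and SLC22A2 were low.

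Of 14 receptor genes for these transmitters, ADRA2C and DRD2, which encode inhibitory receptors that act as autoreceptors in catecholamine neurons, were the 2 tested. ADRA2C had 2.503, 4.21 and 2.31 CPM in IR+Oligonol libraries, against 5.48, 7.57 and 7.68 CPM in IR control libraries, with all IR+Oligonol libraries below IR control. It fell with a log2 fold change of -1.21 (adjusted p 0.0116 in edgeR). DRD2 fell with -0.73 (adjusted p 0.0244 in edgeR), and neither was called with the GC trend removed (-0.24 and -0.01). ADRA1A, ADRA2A, ADRB1, ADRB3, DRD3 and DRD4 were low. ADRA1D and DRD1 were silent, and ADRA1B, ADRA2B and DRD5 were listed at 0 in all libraries.

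Beyond CHGA and CHGB, 28 genes of dense-core granules were listed and 18 tested, with 4 called higher and 6 lower, and their median log2 change was -0.31. The calcium sensor SYT7 (-1.01, adjusted p 0.00815 in edgeR) and the granule membrane protein PTPRN2 (-0.77, adjusted p 0.0116) had the smallest p. With the GC trend removed, 2 were called lower, namely SCG5 (-0.90, adjusted p 0.0389 in edgeR) and VIP (-1.40, adjusted p 0.0228). All 17 listed subunits of the proton pump, whose gradient drives both VMATs, were expressed, with 4 called higher and 5 lower. ATP6V1A rose (1.19, adjusted p 0.0062 in edgeR) and ATP6V0B fell (-1.46, adjusted p 0.0136). ATP6V0C was called higher (0.67, adjusted p 0.0497 in edgeR) and ATP6AP2 lower (-1.01, adjusted p 0.0310) with the GC trend removed.

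Regulators of TH and DBH transcription numbered 18, of which 16 were tested, 4 called higher and 3 lower. Those called lower were HAND1 (-0.77, adjusted p 0.0208 in edgeR), GATA2 (-0.70, adjusted p 0.0394) and NR4A1 (-0.68, adjusted p 0.0260). None of these was called with the GC trend removed (-0.12, 0.31 and 0.26). CREB1, which binds the cAMP response element in the CHGA promoter, had 6.21, 3.18 and 4.74 CPM in IR+Oligonol libraries, against 1.73, 1.95 and 1.47 CPM in IR control libraries. It rose in all 3 IR+Oligonol libraries relative to IR control, with a log2 fold change of 1.47 (adjusted p 0.00848 in edgeR) and 0.77 with the GC trend removed (adjusted p 0.0724). ZNF148 rose with 1.33 (adjusted p 0.00833 in edgeR). TFAP2B, an AP-2 factor of the sympathetic lineage, rose with 0.58 (adjusted p 0.0332 in edgeR) and was called with the GC trend removed as well, at 1.39 (adjusted p 0.0228). It had 5.70, 6.14 and 4.80 CPM in IR+Oligonol libraries, against 4.27, 3.39 and 3.42 CPM in IR control libraries, and these did not overlap.

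Of 23 kinases, phosphatases and 14-3-3 proteins that act on TH protein, all were tested, 13 were called higher and 5 lower, and their median log2 change was 0.69. PRKACB, a catalytic subunit of protein kinase A, rose with 1.83 (adjusted p 0.00655 in edgeR), and YWHAB rose with 1.19 (adjusted p 0.00694). Tested members of this list had a median transcript GC of 45.1%. With the GC trend removed, PRKACB (0.67, adjusted p 0.0467 in edgeR) and CAMK2B (0.95, adjusted p 0.0453) were called higher and YWHAQ (-0.73, adjusted p 0.0397) lower, and the median was 0.13. Of 13 genes that mark other transmitters, 7 were silent, 4 low and 2 tested. SLC18A3, the vesicular acetylcholine transporter, was listed with the transporters and is not among these 13. ACHE fell (-1.08, adjusted p 0.0181 in edgeR) and CHAT was not called (-0.53, adjusted p 0.356).

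**Figure D5:**
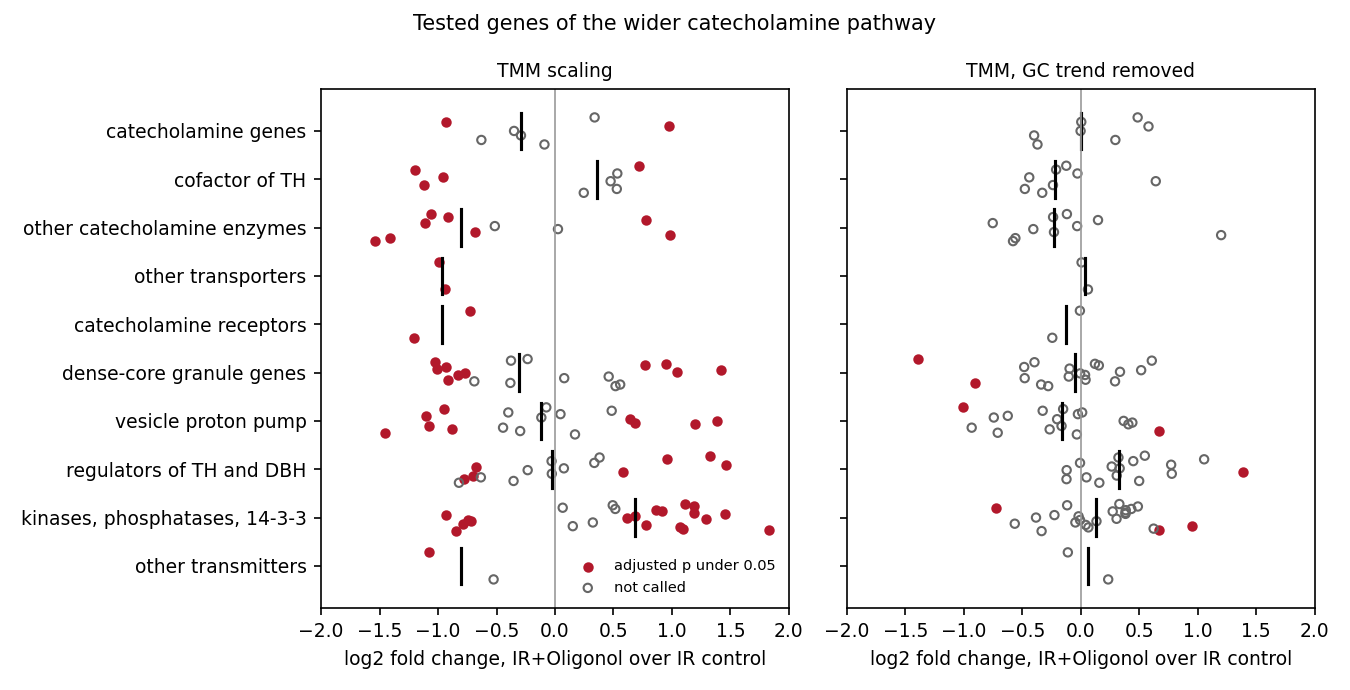
Log2 fold changes, IR+Oligonol over IR control, of tested genes in the 9 catecholamine genes and in 9 pathway lists, with TMM scaling (left) and with the GC trend removed as well (right). Each point is a gene, red where the adjusted p was under 0.05, and black bars are list medians. Most red points of the left panel are open in the right panel, where the medians lie between -0.23 and 0.33.

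The label of the cells was checked against markers. Of 13 noradrenergic neuroblast markers, 4 of which are members (DBH, TH, CHGA and CHGB), 12 were expressed, led by PHOX2A (45.1 ± 15.8 CPM in IR+Oligonol cells and 79.8 ± 10.4 CPM in IR control cells) and HAND2 (25.3 ± 3.27 CPM in IR+Oligonol cells and 39.2 ± 8.06 CPM in IR control cells). Their sum was 151.8 to 202.8 CPM in IR+Oligonol libraries and 206.7 to 247.1 CPM in IR control libraries. Mesenchymal or substrate-adherent cell markers, of which 8 of 12 were expressed, led by VIM and TWIST1, summed to 58.7 to 60.5 CPM in IR+Oligonol libraries and 64.9 to 87.5 CPM in IR control libraries. Glial markers summed to 2.72 to 3.46 CPM in IR+Oligonol libraries and 1.86 to 2.94 CPM in IR control libraries, led by ERBB3 and GFAP, with FOXD3 at 0. Myeloid markers summed to 0.811 to 1.41 CPM in IR+Oligonol libraries and 0.791 to 1.598 CPM in IR control libraries, led by CD68 and CSF1R. Under TMM scaling, on which such sums depend, the noradrenergic and mesenchymal sums were lower in every IR+Oligonol library than in any IR control library. Single markers moved in both directions. In the noradrenergic list ELAVL4 (0.89) and TFAP2B (0.58) were called higher by edgeR and CHGA lower, with a median log2 change of -0.12, or 0.23 with the GC trend removed. In the mesenchymal list CALD1 (1.45) and CD44 (1.32) were called higher and TAGLN (-1.34) and COL3A1 (-0.60) lower. The part of these markers in the members' differences was not tested.

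The genes with the most similar pattern over the 6 libraries were found among 1772 abundant protein-coding genes, by Pearson's r of log2 CPM. They were NR1H2 and DTX3 for CHGA (r = 0.999 each), CCT6A (0.992) and HSP90B1 (0.988) for MAOA, GRAMD1A (0.979) and ISLR2 (0.978) for DBH, and GTF3C1 and CELF3 (0.987) for SLC6A2. RBMX (0.987) and VDAC1 (0.963) were nearest to CHGB, SLIRP (0.947) and DCAF8 (0.886) to DDC, and H2AZ1 (0.904) and FDFT1 (0.870) to SLC18A1. These values describe 6 libraries that share 1 group difference and its GC trend, among many genes searched.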

How the data were processed

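Total RNA of 6 SH-SY5Y libraries was sequenced on both ends after preparation with a stranded total RNA kit, per the labels' protocols. FastQC, kallisto 0.46.1, edgeR and the build GRCh38.p13 appear in the submitters' processing notes without a role or order. No source used here states the step from transcript estimates to gene values. The authors deposited an estimated count and a scaled signal per gene and library, and in each library the 2 deposited columns differed by 1 factor. Estimated counts totalled 19457923 to 20912945 in IR+Oligonol libraries and 22738203 to 32209583 in IR control libraries, and 99.1% of values above 0 were not whole. They behaved as per-length abundances. In low genes with 1 transcript of 500 to 1500 nt, values times effective length were within 0.05 of a whole number of reads for 67.7 to 70.3% of values, with the scale fitted to favour whole numbers. On that scale 1 read of 1000 effective nt was worth 0.352 to 0.458 estimated counts in IR+Oligonol libraries and 0.260 to 0.267 in IR control libraries, so read equivalents are estimates and counting noise is overstated for long mRNAs.

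After rounding of estimated counts, filterByExpr with the 2 groups kept 16574 genes. It asks for enough counts in 3 libraries, so a gene can pass through 1 group alone, as MAOA and MAOB did. Libraries were scaled by TMM, and genes were tested by the robust, 2-sided quasi-likelihood test of edgeR 4.0.16 in R 4.3.3, with Benjamini-Hochberg adjustment over all tested genes and a threshold of 0.05. Expressed genes passed the filter, low genes did not but reached 1 estimated count in a library, and silent genes reached it in none. A simulation on 15128 genes changed 100 of them by 1 on the log2 scale and 100 by 2, of which 18% and 97% were recovered. With so few changed genes the adjustment is stricter than in the data, where 48.9% of genes were called. The changed genes were also drawn only from those with a mean above 5 CPM, a level that DDC, SLC18A1 and MAOA did not reach. These shares are therefore not the power of the comparison itself. For the GC alternative, each library's trend of log2 CPM with transcript GC (natural spline, 5 degrees of freedom, protein-coding genes) entered as an offset for 16200 genes, which removes any true change that follows GC too. Its simulation on 15076 genes recovered 26% and 95.8%. GENCODE release 29 gave transcript length, GC and biotype for 58308 of 61860 identifiers, and all 181 listed symbols were found. Promoters are from RefSeq (GRCh38.p14), matched by symbol.

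Named genes were the 9 members, the 2 smallest p of each list, all genes of the cofactor, enzyme, transporter and receptor lists, the 2 highest markers of each cell type and the 2 genes nearest in pattern. Some genes that this rule names are not reported here, though list counts include them. SCG5, VIP, ATP6V0C, ATP6AP2, TFAP2B, HAND1, GATA2, NR4A1, CAMK2B, YWHAQ, ELAVL4, CALD1, CD44, TAGLN, COL3A1 and the genes overlapping members were added after their values were seen. The members and lists were chosen with earlier results of these data known. P-values measure the spread between these libraries, which may be technical. Other scalings, DESeq2 1.42.0, limma-voom (limma 3.58.1), other filters and thresholds, the replicate block and leaving out each library were the alternatives.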

Additional observations from a re-analysis of the deposited data

How the results depend on the processing

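Of 167 values of the 7 tested genes' log2 fold changes under alternatives, 109 kept their direction and side of the threshold, 24 kept the direction and were no longer called, 8 became called and 26 turned direction. Upper-quartile and RLE scaling, protein-coding TMM, limma-voom and a filter of at least 10 in all libraries each gave 2 called members, as did TMM, though under the last MAOA was not tested and CHGB was called. The number was 0 with no filter, with the GC trend removed and with the GC trend removed beside the block (2 members each at an unadjusted p under 0.05), and 0 at a threshold of 0.01 (3 at an unadjusted p under 0.05). Library totals alone gave 6, all higher and 0 lower. DESeq2 gave 3, all lower and 0 higher, the deposited signal's scaling 2, both higher and 0 lower, and a threshold of 0.10 gave 3, of which 2 were lower. Leaving out 1 library gave 0 to 4 called members, 0 to 1 higher and 0 to 3 lower, with 2 to 4 at an unadjusted p under 0.05, and 0 in every case with the GC trend removed (0 to 2 at an unadjusted p under 0.05).

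Over all genes, 4304 were called higher and 3808 lower. Called genes numbered 4567 with no filter (2964 higher, 1603 lower), 883 with the GC trend removed, 2180 at a threshold of 0.01, 3439 to 8921 without 1 library and 0 to 1307 without 1 library and the GC trend. The split was 6396 higher and 1665 lower under the deposited signal's scaling and 11293 higher and 37 lower with library totals alone.

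The replicate number as a block gave 1 called member, CHGA, and 0 higher (MAOA 1.01, adjusted p 0.0529), and 7030 called genes over all, but 0 when the GC trend was removed as well (3992 at an unadjusted p under 0.05). Deviations of same-numbered libraries had correlations of 0.087, -0.0087 and -0.15, and those of other-numbered libraries ran from -0.19 to 0.19. So few values cannot tell whether same-numbered libraries were paired, and the labels give only a shared number.

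Directions turned as follows, on the log2 scale, and the cause was not tested. Library totals alone gave DDC 1.30, SLC18A1 1.09, SLC6A2 1.02, DBH 0.68 and CHGA 0.42. The deposited signal's scaling gave DDC 0.31, SLC18A1 0.12 and SLC6A2 0.049. DDC was also 0.0016 under upper-quartile scaling and 0.16 with at least 10 in all libraries. With the GC trend removed, DBH was 0.29 and CHGA 0.0033, and with the block added they were 0.33 and 0.0065. With the GC trend removed and 1 library left out, DBH ranged between 0.094 and 0.48, CHGA between -0.090 and 0.071 and SLC6A2 between -0.046 and 0.050. Without 1 library and with no GC step, CHGA ranged between -1.21 and -0.79, MAOA between 0.81 and 1.29, DBH between -0.82 and -0.48, SLC6A2 between -0.42 and -0.31, SLC18A1 between -0.56 and -0.023, DDC between -0.15 and -0.021 and CHGB between 0.20 and 0.44. Leaving out 1 library with the GC trend removed and the deposited signal's scaling were chosen after the data were seen. Depth limits TH and SLC18A2 most, and MAOA rested on 64.6 to 219.7 read equivalents at its median transcript length.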
